A study of Mus musculus with 5 samples.

Results

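The cells described here were 360 mouse spleen cells that resembled type 1 conventional dendritic cells (cDC1) and carried little Apol7c transcript. They were chosen by their own UMI counts (unique molecular identifiers, each standing for 1 captured transcript). Cells under 1000 UMIs, under 500 genes or over 10% of UMIs from mitochondrial genes were dropped first. From the 16271 that remained, the gate took those with at least 2 UMIs of Xcr1 and Clec9a together, at least 5 of H2-Ab1 and at most 1 of Apol7c. Cells with more than 2 UMIs of Fscn1 and Ccl22 together, more than 2 of Cd79a, Cd79b and Ms4a1 together, or more than 1 of Cd3d, Cd3e and Cd3g together were left out. The study profiled spleens of C57/BL6 mice by droplet single-cell RNA sequencing 48 h after cells or saline had been infused into a vein. The 5 libraries held spleens after infusion of live splenic cells of Balbc donors (live allogeneic), live splenic cells of B6 donors (live isogeneic), apoptotic Balbc cells (apoptotic allogeneic), apoptotic B6 cells (apoptotic isogeneic) and saline. Per the labels' protocols, CD45+ cells and pan-dendritic cells were enriched separately with magnetic beads and mixed in equal parts, so cell shares reflect that mixing, and the number of mice behind each library was not given. Each infusion had 1 library, so no difference between infusions has a replicate check, and the intervals given for them cover counting error only. The gate held 43 cells of the live allogeneic library (3.63% of its 1186 cells), 83 of the live isogeneic (2.25% of 3685), 75 of the apoptotic allogeneic (3.54% of 2118), 78 of the apoptotic isogeneic (1.22% of 6380) and 81 of the saline library (2.79% of 2902).

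cDC1 depend on the transcription factors BATF3 and IRF8, take up dying cells through receptors such as CLEC9A, and load antigen from them on MHC class I for CD8+ T cells, a process called cross-presentation. In mouse spleen they carry the chemokine receptor XCR1 and CD8 alpha, sense double-stranded RNA through TLR3 and need WDFY4 to cross-present cell-associated antigen. APOL7C belongs to the apolipoprotein L family and has been linked to the rupture of phagosomes in dendritic cells. Interferons reach these cells through their own receptors and raise chemokines, antigen-processing genes and antiviral GTPases.

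The gate was set on 1 UMI of Apol7c, and its edge was soft. Inside it, 304 cells had no Apol7c UMI and 56 had 1, and just outside it 54 cells had 2 and 497 had 3 or more. Tlr3 was detected in 57.1% of the cells with 1 Apol7c UMI and in 46.3% of those with 2, and Cd8a in 71.4% and 66.7%. At the other edge, the 114 cells with exactly 2 UMIs of Xcr1 and Clec9a together had a Tlr3 UMI in 14.0% and a Cd8a UMI in 36.8%, against 7.66% and 21.7% of the 235 otherwise similar cells with 1.

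Promoter sequence is shown for the interferon-response genes that differed most between live allogeneic and live isogeneic infusion. Of the 4 genes taken, Cxcl9, Iigp1, Ifi27l2a and Serpina3g, it is printed for Cxcl9 and Serpina3g, from RefSeq on GRCm38.p6, running from 250 bases before to 50 after the gene start. Capitals mark a match to GAAANNGAA, the repeat bound by interferon regulatory factors, in Cxcl9, and to TTCNNNGAA, the palindrome bound by STAT dimers, in Serpina3g. The Cxcl9 window lies at chr5:92328030-92328329 on the minus strand and its match starts at -175 from the RefSeq gene start. The Serpina3g window lies at chr12:104235897-104236196 on the plus strand and its match starts at -33.
Cxcl9: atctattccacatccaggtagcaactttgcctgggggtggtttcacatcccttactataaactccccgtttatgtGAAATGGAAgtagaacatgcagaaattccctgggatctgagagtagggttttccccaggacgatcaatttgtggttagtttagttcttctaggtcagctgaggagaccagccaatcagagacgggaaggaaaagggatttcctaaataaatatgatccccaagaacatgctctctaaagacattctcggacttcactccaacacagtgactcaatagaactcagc
Serpina3g: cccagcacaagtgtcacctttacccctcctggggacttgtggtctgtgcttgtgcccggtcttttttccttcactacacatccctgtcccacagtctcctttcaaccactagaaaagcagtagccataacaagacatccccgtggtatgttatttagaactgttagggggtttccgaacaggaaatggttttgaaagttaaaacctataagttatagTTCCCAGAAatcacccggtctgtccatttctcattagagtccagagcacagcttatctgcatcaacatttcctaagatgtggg
On either strand, 8.56% of the 32851 promoter windows held the first motif, 8.30% held the second and 1.07% held both. A match describes these letters and is no measured binding site.

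The name cDC1 was checked against markers that the gate did not use, and the gate proved mixed. Wdfy4 was detected in 75.6% of gated cells, Tlr3 in 48.6% and Cd8a in 56.9%. Among 7192 B cells, which had a median of 2495 UMIs against 8922 in the gate, these shares were 1.54% for Tlr3 and 0.33% for Cd8a. The B cells were chosen by at least 3 UMIs of Cd79a and Cd79b together and no UMI of Cd3d, Cd3e, Cd3g, Xcr1 or Clec9a. Wdfy4 was less selective, with 33.2% of B cells and 74.2% of 737 cDC2-like cells, close to its share in the gate. The gated cells separated on 3 genes of plasmacytoid dendritic cells (pDC), Siglech, Ccr9 and Klk1: 208 cells had none of their UMIs, 77 had 1 to 3, only 2 had 4 to 9 and 73 had 10 or more. Cells with 4 or more, called pDC-marked below, numbered 75 (20.8%, exact binomial 95% interval 16.8 to 25.4%). Of the others, 241 had an Xcr1 UMI (66.9%, 61.8 to 71.8%) and 44 had neither mark (12.2%, 9.02 to 16.1%). These 3 subsets were defined after the data were seen.

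**Figure D1:**
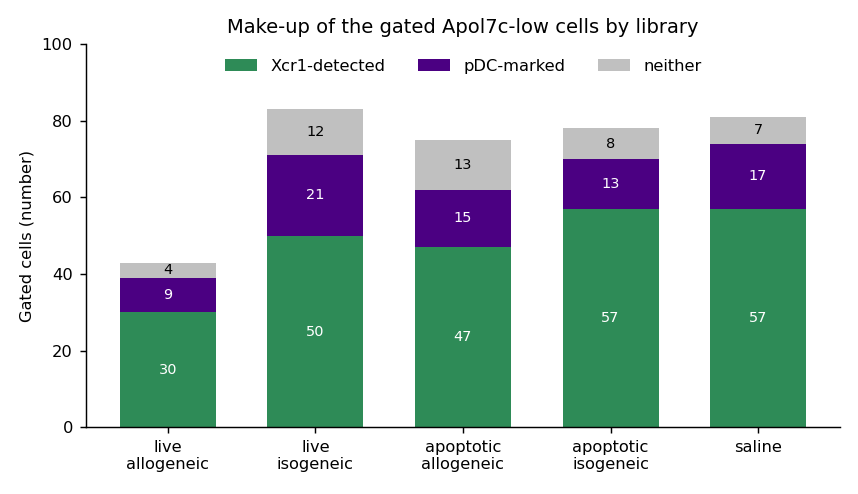
Number of gated Apol7c-low cells per library, stacked by subset: cells with at least 4 UMIs of Siglech, Ccr9 and Klk1 (pDC-marked), other cells with an Xcr1 UMI (Xcr1-detected), and the rest (neither). Xcr1-detected cells were the largest subset in every library, from 30 cells in the live allogeneic to 57 cells in the apoptotic isogeneic and saline libraries.

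Markers that the gate did not use were more frequent in the Xcr1-detected cells. Wdfy4 was detected in 92.9% of them, Tlr3 in 70.1% and Cd8a in 70.5%, against 96.2%, 70.2% and 90.6% of the 551 Apol7c-positive cells, which passed the same gate except for at least 2 Apol7c UMIs. In the pDC-marked cells the same shares were 32.0% for Wdfy4, 1.33% for Tlr3 and 30.7% for Cd8a, while Ly6c2, a surface protein of pDC and monocytes that did not define them, was detected in 96.0% of them and in 29 of the 241 Xcr1-detected cells. Cells with neither mark had Lyz2, a lysozyme of myeloid cells, in 59.1%, Cd209a in 36.4% and Ccr2 in 56.8%, with Tlr3 in 11.4%. Lyz2 was about as frequent in Xcr1-detected cells (40 to 68.1% per library) and in Apol7c-positive cells (53.9 to 68.7%). Its level was 247 to 7462.5 CPM per library in cells with neither mark and 76.4 to 255 CPM in Xcr1-detected cells. Of the Apol7c-positive cells, 13 of 551 were pDC-marked (2.36%, 1.26 to 4.0%).

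Each library held all 3 subsets. Of its gated cells the live allogeneic library had 69.8% Xcr1-detected and 20.9% pDC-marked, the live isogeneic 60.2% and 25.3%, the apoptotic allogeneic 62.7% and 20%, the apoptotic isogeneic 73.1% and 16.7%, and saline 70.4% and 21.0%. Across the 5 libraries these exact binomial intervals overlapped for either subset. T cell, neutrophil and NK cell lists summed to at most 16.0, 8.6 and 103 CPM (UMIs of the gene or list divided by all UMIs of the cells and scaled to 1000000) in any library's gated cells, while the pDC list lay between 2113 and 3018 CPM, the classical monocyte list between 2390 and 3331 CPM and the cDC2 list between 503 and 647 CPM. The B cell list lay between 481 and 724 CPM, and the macrophage list between 14.0 CPM in the live allogeneic and 314 CPM in the apoptotic allogeneic library.

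**Figure D2:**
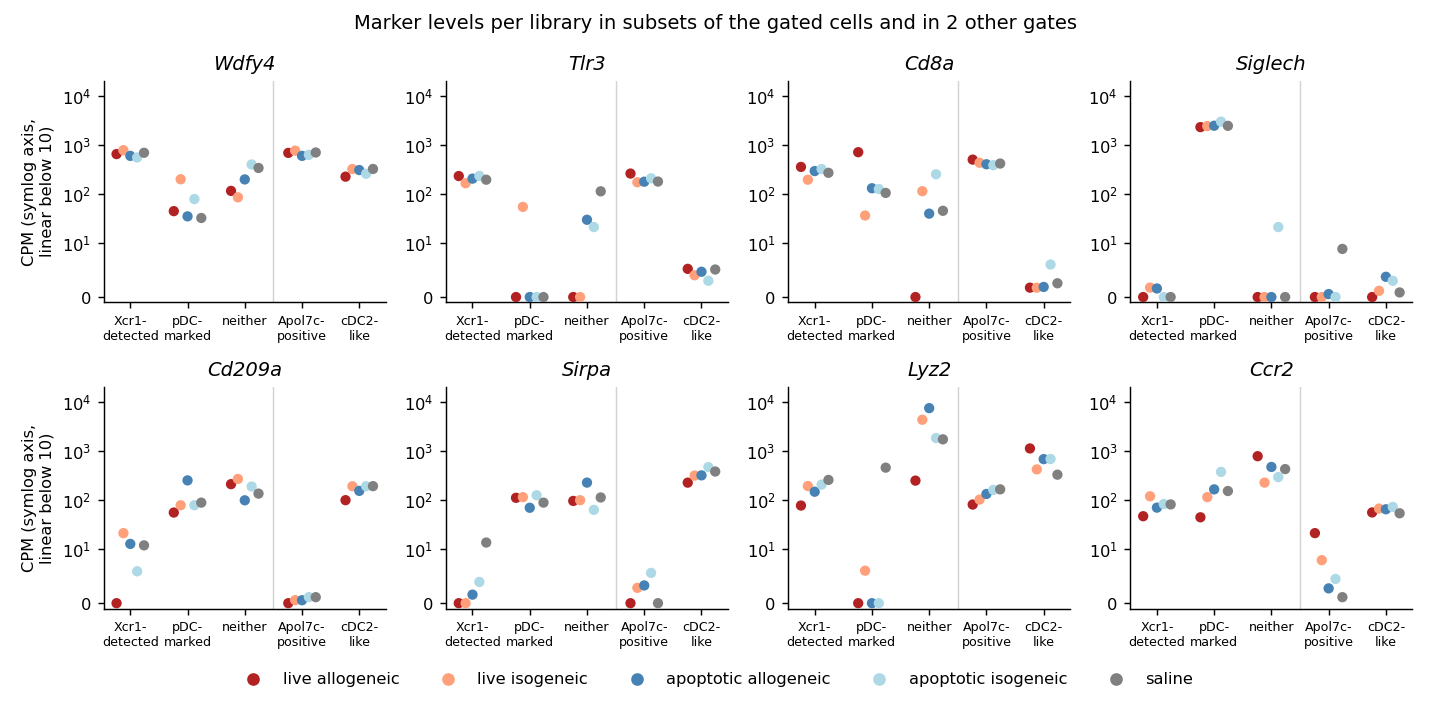
Level of 8 marker genes in CPM (log axis above 10 and linear below), 1 point per library coloured by infusion, in the 3 subsets of the gate (left of the line) and in Apol7c-positive and cDC2-like cells (right). Wdfy4 and Tlr3 levels of Xcr1-detected cells overlapped with those of the Apol7c-positive cells. Siglech is shown as one of the 3 genes that define the pDC-marked cells.

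The gated share among all cDC1-like cells, low and positive together, was 58.9% after live allogeneic infusion (43 of 73 cells, exact binomial 95% interval 46.8 to 70.3%), 40.3% after live isogeneic, 36.4% after apoptotic allogeneic, 43.3% after apoptotic isogeneic infusion and 32.9% after saline (81 of 246, 27.1 to 39.2%). Counted among Xcr1-detected cells alone it was 51.7%, 29.6%, 27.5%, 36.5% and 26.6% in the same libraries. The live allogeneic library was the highest on either count. It also held the fewest cDC1-like cells, and no test between libraries was possible.

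Live allogeneic against live isogeneic infusion is the comparison of donor strain among live cells. In the gate's summed counts, the genes with the largest log2 ratios after live allogeneic infusion were the chemokine Cxcl9, the GTPase Iigp1, Gm11808, Gm20186, the mitochondrial protein gene Ifi27l2a and the protease inhibitor Serpina3g, 4 of which are interferon-response genes. Of 3855 genes measured, with at least 50 UMIs in both sums together, 304 were at least 1.5-fold higher (7.89%) and 305 at least 1.5-fold lower (7.91%). These are counts past a fold and no tests.

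Cxcl9, which recruits CXCR3-bearing T cells, had 707, 78.7, 159, 181 and 138 CPM in the live allogeneic, live isogeneic, apoptotic allogeneic, apoptotic isogeneic and saline gates. The live allogeneic library was the highest and the live isogeneic the lowest, 8.99-fold apart (exact Poisson 95% interval 6.91 to 11.9). Live allogeneic exceeded saline 5.11-fold (4.13 to 6.37). Cxcl9 UMIs sat in few cells: 3 cells held 68.9% of them in the live allogeneic gate and the highest cell alone held 212 of 453. A UMI was seen in 44.2% of live allogeneic and 25.3% of live isogeneic cells. Xcr1-detected cells held 91.3% of the gate's Cxcl9, and among them the levels were 781, 97.4, 213, 221 and 175 CPM. In Apol7c-positive cells Cxcl9 was at 381, 609, 652, 569 and 730 CPM, so there the live allogeneic library was the lowest. Droplets with 10 to 100 UMIs, which hold free RNA, had Cxcl9 at 191 CPM in the live allogeneic, 69.4 in the live isogeneic, 38.1 in the apoptotic isogeneic and 64.9 in the saline library.

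Zbp1, a sensor of Z-form nucleic acids, had 93.7 CPM in the live allogeneic and 19.6 CPM in the saline gate, 4.78-fold apart (2.68 to 9.07). In Xcr1-detected cells a Zbp1 UMI was seen in 60%, 30%, 31.9%, 10.5% and 12.3% of the 5 libraries' cells, highest after live allogeneic infusion. In Apol7c-positive cells Zbp1 was seen in 23.3%, 17.1%, 10.7%, 8.82% and 12.7%. Its level was 13.4 to 82.5 CPM per library in Xcr1-detected cells and only 12.3 to 18.0 CPM in Apol7c-positive cells. These shares were not thinned. Median depths per library were 8877 to 19151 UMIs in Xcr1-detected and 8662.5 to 20128 UMIs in Apol7c-positive cells, in each case highest in the live allogeneic library. Free-RNA droplets had Zbp1 at 98.7 CPM in the live allogeneic library and 33.4 to 49.6 CPM in the others measured.

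Serpina3g, an inhibitor of cathepsins, had 114, 40.6, 44.5, 64.1 and 17.0 CPM, and Xcr1-detected cells held 78.7% of its UMIs. All 4 infusions of cells lay above saline. Live allogeneic infusion exceeded live isogeneic 2.81-fold (1.84 to 4.38) and saline 6.71-fold (3.69 to 13.2), and apoptotic isogeneic infusion exceeded saline 3.77-fold (1.98 to 7.69). Apol7c-positive cells had Serpina3g at 47.0, 95.5, 94.2, 87.0 and 127 CPM, with saline the highest.

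Iigp1 had 139, 27.0, 19.9, 11.2 and 1.31 CPM, the last from 1 UMI. Live allogeneic exceeded live isogeneic infusion 5.14-fold (3.19 to 8.61), and against the 1 saline UMI the ratio's counting interval ran from 18.6 to 4248. The pDC-marked cells held 53.7% of Iigp1 and Xcr1-detected cells 44.1%, and 3 cells held 68.5% of it in the live allogeneic gate. In Xcr1-detected cells Iigp1 was at 98.6, 1.74, 12.6, 3.91 and 0 CPM, where 4 of 30 live allogeneic cells had a UMI.

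Ifi27l2a and Isg15 were carried in large part by the pDC-marked cells, which held 53.8% and 46.3% of their UMIs. Ifi27l2a had 582, 226, 197, 227 and 249 CPM, with the live allogeneic library 2.57-fold above the live isogeneic (2.15 to 3.09). Isg15, a ubiquitin-like protein added to proteins under type I interferon, had 151, 63.9, 31.6, 30.4 and 27.4 CPM, and live allogeneic exceeded saline 5.52-fold (3.42 to 9.32). Within Xcr1-detected cells Ifi27l2a was at 209, 78.3, 66.1, 74.2 and 90.7 CPM and Isg15 at 68.4, 26.1, 20.5, 11.7 and 23.5 CPM, so the live allogeneic library was the highest there too. B cells of the live allogeneic library also had the most Ifi27l2a, 1594 CPM against 581 to 723 CPM in the others, and its free-RNA droplets had 1037 CPM against 377 to 583 CPM. Isg15 in free-RNA droplets was at 222 CPM in the live allogeneic library against 35.6 to 38.2 CPM in the others measured. The part of free RNA in the gated levels was not tested.

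**Figure D3:**
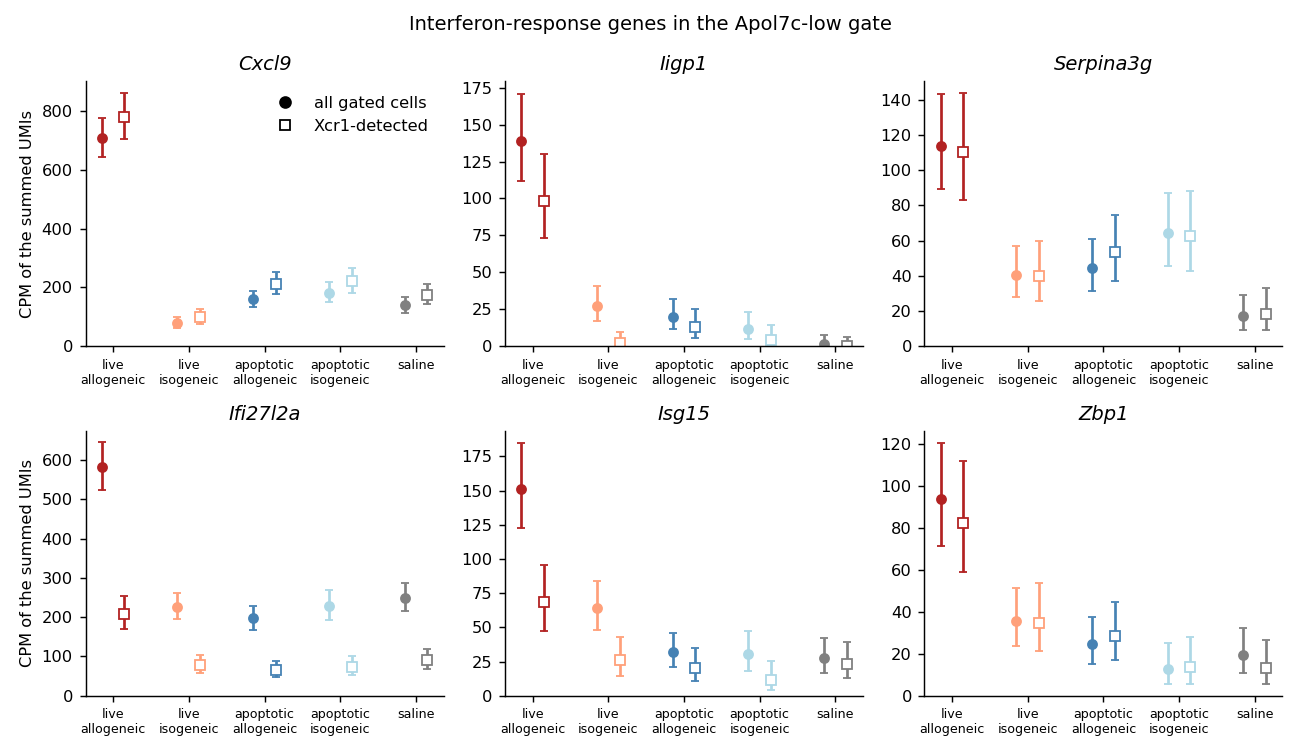
CPM of 6 interferon-response genes per library in all gated cells (filled circles) and in Xcr1-detected cells alone (open squares), with exact Poisson 95% intervals that cover counting error only. The live allogeneic library was the highest for each gene in either set, and for Ifi27l2a and Isg15 the Xcr1-detected level lay below the level of all gated cells.

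A type I interferon list had 43 members found by symbol, of which 24 had enough UMIs to be measured in this comparison, a filter that favours members high in 1 library. Of the 24, 10 were at least 1.5-fold higher after live allogeneic than live isogeneic infusion and 0 lower, with a median log2 ratio of 0.36 against 0.01 over all genes measured. With at least 3 UMIs of Xcr1 and Clec9a required of each cell, 6 of 20 were higher and 3 lower (median 0.19, against 0.02 over all genes). Among Xcr1-detected cells 7 of 17 were higher and 0 lower (0.30, against 0.00 over all genes). Shares of all genes past 1.5-fold are given here for the whole gate only, not for these smaller cell sets. Irf7, which amplifies type I interferon, had 169, 108, 82.0, 86.5 and 114 CPM. The pDC-marked cells held 51.3% of its UMIs, and in Xcr1-detected cells it was at 78.5, 53.9, 44.1, 58.6 and 75.6 CPM, where live allogeneic and saline were close. Bst2, which tethers virus at the cell surface, had 693, 698, 489, 444 and 464 CPM, where both live infusions lay above the other libraries.

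Summed over all 43 members without the filter, the list came to 4869, 3658, 2874, 2982 and 2921 CPM in the gate, the live allogeneic library first and the live isogeneic next. In Xcr1-detected cells the sum was 3044, 2136, 1916, 2046 and 2090 CPM, in pDC-marked cells 11363, 8921, 6912, 8442 and 6180 CPM, in Apol7c-positive cells 2217, 1763, 1739, 1683 and 1977 CPM, and in 737 cDC2-like cells 7723, 4108, 3969, 4167 and 4406 CPM. The live allogeneic library was highest in each of these cell sets. In levels, pDC-marked cells carried the most of this list and Apol7c-positive cells the least.

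Thinned to 1000 UMIs per cell, at least 3 UMIs of this list were found in 62.8% of live allogeneic gated cells (exact binomial 95% interval 46.7 to 77.0%), 47.0% of live isogeneic, 53.3% of apoptotic allogeneic, 47.4% of apoptotic isogeneic and 45.7% of saline cells (34.6 to 57.1%). Unthinned shares were 97.7%, 90.4%, 96.0%, 97.4% and 91.4%. These intervals overlapped. Among Xcr1-detected cells the thinned shares were 46.7%, 32.0%, 36.2%, 33.3% and 33.3%.

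**Figure D4:**
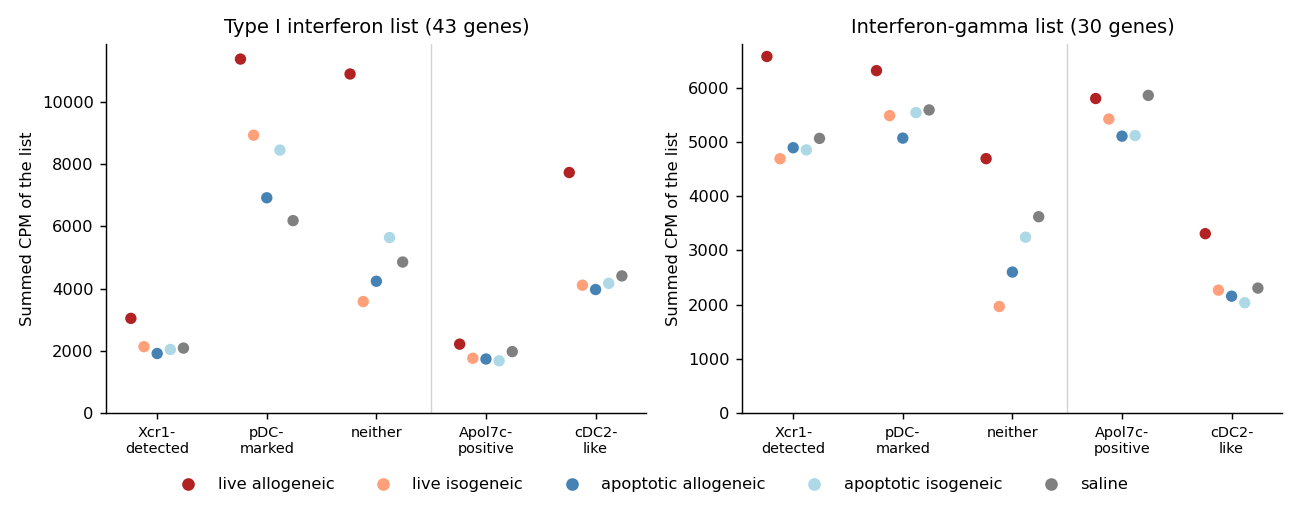
Summed CPM of the type I interferon list (43 genes, left panel) and the interferon-gamma list (30 genes, right panel), 1 point per library coloured by infusion, in the 3 subsets of the gate (left of each line) and in Apol7c-positive and cDC2-like cells (right). The live allogeneic point was the highest of 5 for the type I list in each set, and for the interferon-gamma list in each set except Apol7c-positive cells, where saline was at 5857 and live allogeneic at 5800.

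Of 13 measured members of an interferon-gamma list, 6 were at least 1.5-fold higher after live allogeneic than live isogeneic infusion and 0 lower (median log2 ratio 0.51). Irf1, a transcription factor that interferon gamma induces, had 96.8, 36.9, 62.1, 32.0 and 34.0 CPM, 2.62-fold higher after live allogeneic than live isogeneic infusion. Psmb9, an immunoproteasome subunit, had 696, 487, 355, 402 and 371 CPM. Irf8 had 2195, 2093, 2154, 2193 and 2424 CPM. Of 21 members measured in each case 3 of the cDC1 identity list were higher and 1 lower, and 0 of the cross-presentation list higher and 1 lower. For the MHC class II list, 1 of 12 was higher and 1 lower.

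MHC class I genes were high after both live infusions. B2m, the light chain of class I, had 1358, 1534, 906, 788 and 798 CPM, H2-D1 1140, 1187, 752, 618 and 696 CPM, and H2-T22 65.6, 68.8, 35.2, 33.6 and 22.2 CPM. For B2m and H2-D1 the live libraries did not overlap with the other 3. Summed over the list, MHC class I and its loading machinery came to 11120, 9721, 8176, 7603 and 8283 CPM. The difference was not particular to the gate. In Apol7c-positive cells the sum was 11034, 9298, 7688, 7295 and 7902 CPM, and in cDC2-like cells 10058, 7561, 6628, 6067 and 6517.5 CPM. Of 22 measured members, 1 was at least 1.5-fold higher in the live allogeneic than in the live isogeneic gate.

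Other genes higher after live allogeneic than live isogeneic infusion were Cd8a, with 373, 154, 238, 293 and 227 CPM, the proliferation gene Pclaf, with 204, 79.9, 142, 141 and 191 CPM, the survival gene Bcl2a1b, with 211, 86.0, 92.6, 81.7 and 96.6 CPM, Sept3, Gm11808 and Gm20186. For Cd8a and Pclaf the live isogeneic library was the lowest of 5, and for Bcl2a1b the live allogeneic was the highest. In the live allogeneic gate, 3 cells held 67.4% of Bcl2a1b, with 67 of its 135 UMIs in a single cell. For Pclaf, 3 cells held 60.3% there. Genes at the low end were Rgs1, with 7.80 against 101 CPM, Lyz2, with 79.6, 515, 1003, 309 and 373 CPM, Cd209d, with 18.7, 99.6, 159, 117 and 106 CPM, Tmem176a, Tmem176b, Pptc7, Il6ra, Lars2, Gm10076 and Gm42418. Lyz2 came from few cells: 69.2% of its UMIs lay in cells with neither mark, and 3 cells held 73.3% of it in the live isogeneic gate. Cd209d lay in the pDC-marked cells (84.1%). Gm42418, which overlaps ribosomal RNA sequence, had 14025 CPM in the live allogeneic and 48433 CPM in the live isogeneic gate, and in free-RNA droplets it was also highest in the live isogeneic library of the 4 measured. A list of 6 such background transcripts summed to 41143 CPM in the live allogeneic gate, 75863 in the live isogeneic and 38437 to 47523 CPM in the other 3 libraries.

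Set against saline, live allogeneic infusion had 325 of 3724 genes at least 1.5-fold higher (8.73%) and 276 lower (7.41%). Of the type I interferon list 12 of 21 measured members were higher and 0 lower (median log2 ratio 0.62). Among Xcr1-detected cells 7 of 18 were higher and 2 lower (0.38, against -0.01 over all genes there). In the whole gate 7 of 12 members of the interferon-gamma list were higher and 0 lower (0.74). Of the MHC class I list 10 of 21 were higher and 0 lower (0.53), beside a median of 0.00 over all genes. The 5 leading genes were Iigp1, Cxcl9, Serpina3g, Isg15 and Zbp1, and the 5 at the low end were Lyz2, Cd209d, Crebzf, Ltb (18.7 against 66.6 CPM) and Il17ra (18.7 against 58.8 CPM).

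Live isogeneic infusion against saline had 343 of 4100 genes at least 1.5-fold higher (8.37%) and 278 lower (6.78%). Of the type I interferon list 7 of 20 measured members were higher and 0 lower (median log2 ratio 0.22), but among Xcr1-detected cells 2 of 16 were higher and 1 lower (-0.02). Of the MHC class I list 7 of 21 were higher and 0 lower (0.13). The leading genes were Gm42418, Rgs1, Lars2, Snhg8 and Basp1, and those at the low end Ten1, Uqcc3, Dusp2, Pclaf and Stmn1. Rgs1, a regulator of G-protein signalling, had 101 CPM in the live isogeneic and 20.9 CPM in the saline gate, 4.82-fold apart (2.80 to 8.83). Of a list of early-response genes, which tissue digestion can also induce, 7 of 15 were higher and 1 lower (0.48). For live allogeneic against live isogeneic infusion, 1 of 15 was higher and 6 lower (-0.29). The part of cell handling in these values was not tested.

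The apoptotic infusions stood closer to each other and to saline in interferon-response genes. Apoptotic allogeneic against apoptotic isogeneic infusion had 212 of 3742 genes at least 1.5-fold higher (5.67%) and 141 lower (3.77%), with 1 of 19 measured type I interferon members higher and 0 lower (median log2 ratio -0.07). The leading genes were the histone gene Hist1h2ap (5.12-fold, 2.43 to 12.4), of whose UMIs 3 cells held 89.3% in the apoptotic allogeneic gate, Lyz2, Sh2d3c, the heat-shock genes Hspa1b and Hspa1a, Cd8b1, Hist1h2ab, with 93.7% in 3 cells, Polr2l, Hk2 and Nfe2l2. Sh2d3c, an adaptor protein gene, was detected in 42.7% of apoptotic allogeneic and 8.97% of apoptotic isogeneic cells. At the low end were Pianp (14.1 against 62.5 CPM), Mrpl41, Cirbp, Rbbp8, Cops3, Slc25a20, Lig1, Mrpl16, Rinl and Nampt. Of 19 measured cDC1 identity genes 0 were higher and 6 lower, at a median log2 ratio of -0.27, and of 7 classical monocyte markers 2 were higher and 0 lower (0.33). The apoptotic allogeneic gate held 62.7% Xcr1-detected cells and 17.3% with neither mark, against 73.1% and 10.3% in the apoptotic isogeneic gate. The cDC1 identity list summed to 7335 against 8230 CPM in the gate and to 8753 against 9115 CPM in Xcr1-detected cells.

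Against saline, apoptotic allogeneic infusion had 184 of 4097 genes higher (4.49%) and 246 lower (6.0%), and 0 of 19 type I interferon members past 1.5-fold in either direction. Hspa1b led, at 60.9 against 15.7 CPM (3.89-fold, 2.05 to 8.0), with Lyz2, Hist1h2ab, Tmem176b and Rgs1, and Pde1b, Capn2, Dennd4b, Txndc11 and Crybg1 were at the low end. Apoptotic isogeneic infusion had 111 of 3598 genes higher (3.09%) and 279 lower (7.75%), and 0 of 18 type I interferon members higher and 1 lower. Serpina3g led, with Tomm7, Atl3, Snhg8 and Cirbp, and Hist1h2ap, Gm10076, Lrp8, Dusp2 and Kif23 were at the low end. These comparisons share the saline library.

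Apol7c-low and Apol7c-positive cells of the same library were then compared over the 5 libraries, with the library as a block, in edgeR's quasi-likelihood test. Of 6740 genes tested, 620 were higher in Apol7c-low cells (9.20%) and 702 lower (10.4%) at an adjusted p under 0.05. The genes that chose the cells were left out. The largest rises were of pDC genes: in all 12 genes that led, among them Siglech, Klk1, Cd209d, Ly6c2 and Spib, the pDC-marked cells held 84.1 to 99.9% of the UMIs, which for Siglech and Klk1 follows from how they were defined. All 12 measured pDC markers, all 7 classical monocyte markers and 8 of 10 cDC2 markers rose. Summed per library, the cDC2 list came to 1265 to 1756 CPM in pDC-marked cells and 917 to 1520 CPM in cells with neither mark. In Xcr1-detected cells it came to 262 to 351 CPM, in each library below the Apol7c-positive cells (329 to 509 CPM). Without the pDC-marked cells 406 genes were higher, and DESeq2 called 288 higher and 343 lower. Apol7c-positive cells were deeper, with a median of 11642 UMIs against 8922 in Apol7c-low cells, and after thinning to 1000 UMIs 93 genes were higher and 105 lower of 974 tested.

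Of the 23 tested cDC1 identity genes, 20 were lower in Apol7c-low cells and 0 higher, at a median log2 difference of -0.75 against 0.02 over all genes. Cadm1, an adhesion molecule, had 190, 138, 143, 216 and 138 CPM in Apol7c-low cells, against 488, 366, 420, 377 and 473 CPM in Apol7c-positive cells of the same libraries. The groups did not overlap (log2 difference -1.52, SE 0.10, edgeR adjusted p = 2.11e-12). Wdfy4 averaged 525 ± 51.4 CPM in Apol7c-low and 669 ± 64.6 CPM in Apol7c-positive cells (SD, n = 5 libraries each), a log2 difference of -0.48 (SE 0.06, edgeR adjusted p = 4.51e-07). Tlr3 averaged 161 ± 24.5 and 198 ± 36.3 CPM in these groups (log2 difference -0.41, edgeR adjusted p = 0.00108). The factors Batf3 (-0.12, adjusted p = 0.429) and Irf8 (-0.08, adjusted p = 0.195) did not pass edgeR's test. The gate also held the 75 pDC-marked cells and the 44 with neither mark, so the same genes are given below for Xcr1-detected cells alone.

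The enzymes that make cholesterol rose in Apol7c-low cells: 9 of 12 tested members were higher and 0 lower, at a median log2 difference of 1.17. The pDC-marked cells carried the most of this list per library, 869 to 1474 CPM summed. Xcr1-detected cells had 473 to 628 CPM and Apol7c-positive cells 296 to 348 CPM. Idi1, an isomerase of the isoprenoid steps, had 26.5, 25.8, 38.7, 35.2 and 41.8 CPM in Apol7c-low cells, against 6.97, 8.47, 5.44, 8.92 and 6.64 CPM in Apol7c-positive cells (log2 difference 2.10, SE 0.25, edgeR adjusted p = 1.86e-07). The groups did not overlap. Sqle, squalene epoxidase (1.55, SE 0.26), Fdps, farnesyl diphosphate synthase (1.34, SE 0.13), and Hmgcs1, HMG-CoA synthase (1.20, SE 0.18), rose as well. Apoe, a lipoprotein that carries cholesterol out of cells, had 28.1, 51.6, 56.2, 51.2 and 61.4 CPM in Apol7c-low cells, against 45.3, 153, 250, 110 and 210 CPM in Apol7c-positive cells, and was lower in each library (log2 difference -1.78, edgeR adjusted p = 6.97e-11). Of the cholesterol efflux list, 2 of 9 tested members rose and 3 fell, with the transporter Abcg1 at -0.93.

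Some inflammatory and activation genes were lower in Apol7c-low cells. Of 7 tested members of a cytokine and chemokine list 0 rose and 4 fell: Cxcl10 (log2 difference -2.86, edgeR adjusted p = 2.33e-08), Cxcl9 (-1.67, edgeR adjusted p = 3.71e-05), Il1b (-1.34) and Cxcl16 (-1.0). Cxcl10 was near the floor in Apol7c-low cells, at 2.61 to 14.0 CPM, and at most 3 cells held all its UMIs in each library. A Cxcl10 UMI was seen in 1.28 to 4.65% of Apol7c-low and 6.67 to 12.2% of Apol7c-positive cells per library. Cxcl9 was lower in 4 of 5 libraries and higher in the live allogeneic one. Of 16 maturation genes 2 rose and 7 fell, with the costimulatory molecule Cd86 at -0.96, averaging 94.0 ± 22.99 CPM in Apol7c-low and 167 ± 8.61 CPM in Apol7c-positive cells (SD, n = 5 libraries each), and Cd83 at -1.23. Of 21 NF-kappaB targets 1 rose, 7 fell and 13 did not pass. Of 22 early-response genes, which tissue digestion can also induce, 3 rose and 15 fell.

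MHC class II fell, with 2 of 12 tested members higher and 9 lower (median log2 difference -0.47). The pDC-marked cells carried less of this list, 13915 to 18669 CPM, against 27595 to 30100 CPM in Xcr1-detected and 32563 to 36014 CPM in Apol7c-positive cells. Among Xcr1-detected cells alone, 7 of 12 members were lower in all 5 libraries and 0 higher. Library medians of the log2 difference there were between -0.28 and -0.18. H2-Eb1 had 3867, 4117, 4126, 3874 and 3593 CPM in Apol7c-low cells, against 6034, 6036, 5583, 5155 and 5474 CPM in Apol7c-positive cells, without overlap. Receptors for dying cells fell in part: 1 of 8 tested members rose and 5 fell, with Havcr2, the phosphatidylserine receptor TIM-3, at -0.81. Of the type I interferon list 13 of 30 tested members rose and 0 fell (median 0.33), led by Bst2 at 2.96, of whose UMIs the pDC-marked cells held 80.8%. The interferon-gamma list had 1 of 15 higher and 7 lower.

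The genes with the largest fall did not lie in the pDC-marked cells, which held at most 5.94% of their UMIs. Dnase1l3, a secreted nuclease that digests chromatin, averaged 330 ± 41.4 CPM in Apol7c-low and 1186 ± 137 CPM in Apol7c-positive cells (SD, n = 5 libraries each), a log2 difference of -1.99 (SE 0.08, edgeR adjusted p = 9.83e-17). Cd207, the lectin langerin, averaged 7.002 ± 3.20 and 45.0 ± 11.4 CPM in these groups, a log2 difference of -2.81 (SE 0.25, edgeR adjusted p = 8.24e-10). Itgae, the integrin CD103 (-2.57), Ptgis, prostacyclin synthase (-2.17), Serpinb9, a granzyme B inhibitor (-1.95), Fndc5, Dkk3, Tent5c, Gm11837, Trabd2b, Slc25a26 and Homer2 were lower in each of the 5 libraries.

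Among Xcr1-detected cells alone, Apol7c-low and Apol7c-positive cells are compared by values without a test, because that subset was chosen after the data were seen. Here 977 of 4898 genes with at least 200 UMIs were higher in all 5 libraries and 404 lower, with library medians of the log2 difference between 0.03 and 0.11. Ccr2, a chemokine receptor of monocytes and dendritic cell precursors, led the higher genes, with 46.3, 118, 69.3, 82.1 and 80.6 CPM in Apol7c-low cells, against 21.9, 8.20, 2.32, 4.57 and 1.17 CPM in Apol7c-positive cells. The intermediate filament gene Vim had 348, 320, 258, 268 and 384 CPM in Apol7c-low cells, against 115, 54.5, 50.5, 58.3 and 52.5 CPM in Apol7c-positive cells. Neither gene's groups overlapped. Anxa2 and S100a10, which form a membrane-binding complex, Lgals1, S100a6, Ahnak, Ifi203, Ifi27l2a, Ms4a6c and Mndal followed, at mean log2 differences of 1.92 down to 1.34.

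Some falls seen in the whole gate were also present in the Xcr1-detected cells and others were not. Dnase1l3 had 487, 421, 331, 379 and 356 CPM in Apol7c-low cells, against 1013, 1235, 1339, 1052 and 1263 CPM in Apol7c-positive cells. Apoe (mean log2 difference -1.79), Cxcl10 (-1.71), Cd207 (-1.57), Trib1 (-1.38), Itgae (-1.38) and Cadm1 (-1.03) were lower in each library. Cxcl10 was at only 1.68 to 13.9 CPM in these Apol7c-low cells, with a UMI in 1.75 to 4% of them per library. Tlr3 (0.03) and Wdfy4 (-0.05) lay near 0, with ranges over libraries of -0.21 to 0.21 and -0.16 to 0.04. Of the cDC1 identity list 2 of 23 members were higher and 12 lower in all 5 libraries. Of the activation lists few members were lower in all 5: 2 of 13 maturation genes, 2 of 19 NF-kappaB targets, 2 of 6 cytokines and chemokines and 5 of 20 early-response genes, with 0 higher. In the live allogeneic library the medians of these lists lay above 0, at 0.19, 0.03, 0.08 and 0.17, and in each other library below 0. Of 5 cholesterol synthesis genes with enough UMIs 4 were higher in all 5 libraries and 0 lower, with library medians of 0.26 to 0.89. Of 19 G2 and M phase genes 12 were higher in all 5 and 0 lower. Median depths of the Xcr1-detected cells were 19151, 13125, 13432, 8877 and 10203 UMIs in Apol7c-low cells, against 20513, 15736, 13958, 8732 and 10651 UMIs in Apol7c-positive cells.

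**Figure D5:**
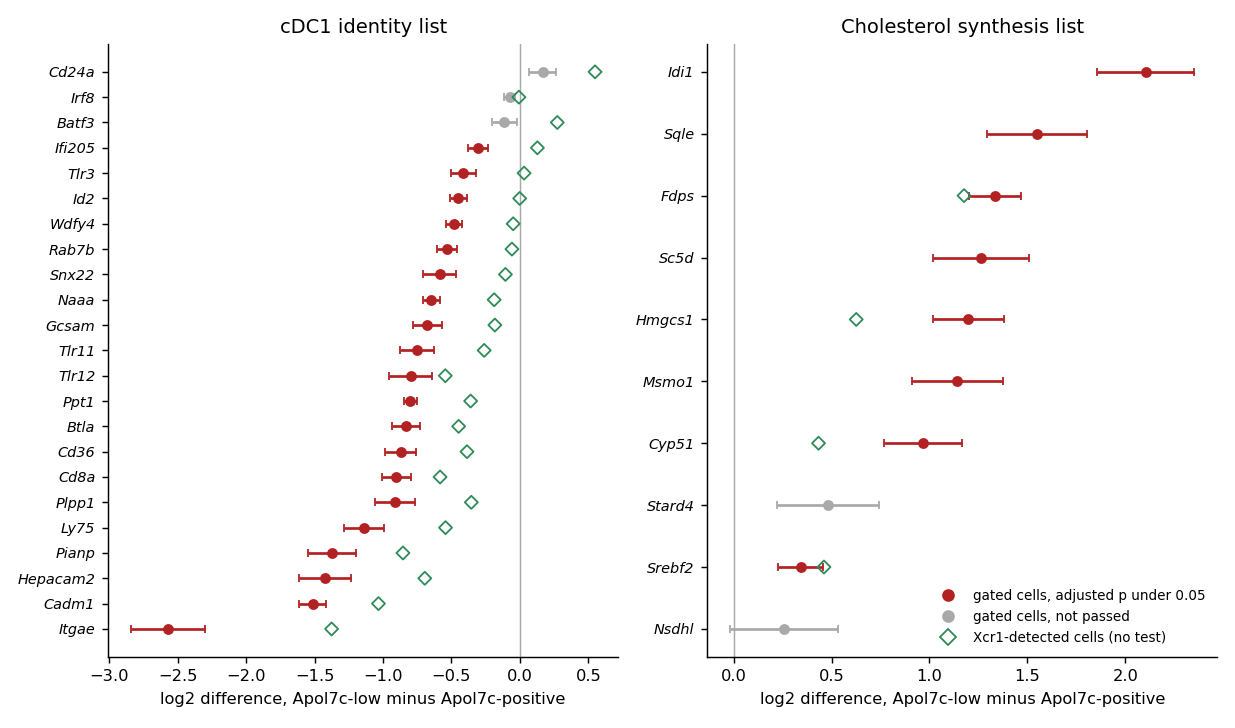
Log2 difference, Apol7c-low minus Apol7c-positive cells, for the tested members of the cDC1 identity list (left) and for 10 of the 12 of the cholesterol synthesis list (right). Circles with SE bars are edgeR's paired fit over 5 libraries in all gated cells, red where the adjusted p was under 0.05, and green diamonds are the mean over libraries in Xcr1-detected cells, with no test. In Xcr1-detected cells Wdfy4 lay at -0.05 (-0.48 in all gated cells), Cadm1 at -1.03 (-1.52) and Fdps at 1.18 (1.34).

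Cell cycle genes were also measured. Mki67, a protein of cycling cells, was detected in 29.0% of Xcr1-detected, 8% of pDC-marked and 21.9% of all gated cells, against 21.6% of Apol7c-positive cells. It averaged 196 ± 50.5 CPM in Apol7c-low and 142 ± 38.0 CPM in Apol7c-positive cells (SD, n = 5 libraries each), and was higher in Apol7c-low cells in each library (log2 difference 0.37, edgeR adjusted p = 0.0449). Of 26 tested G2 and M phase genes 5 rose and 0 fell, and of 26 S phase genes 0 passed in either direction.

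The cDC2-like cells had no Xcr1 or Clec9a UMI, at least 5 UMIs of H2-Ab1, at least 2 of Cd209a and Sirpa together and at most 1 of Siglech, Ly6c2 and C1qa together, so genes of either gate were left out. Against cDC2-like cells of the same libraries, 1387 of 6992 tested genes were higher in Apol7c-low cells (19.8%) and 1353 lower (19.4%). All 22 tested cDC1 identity genes were higher, at a median log2 difference of 4.78. Rab7b, a small GTPase of late endosomes, averaged 270 ± 30.9 CPM in Apol7c-low and 0.17 ± 0.38 CPM in cDC2-like cells (SD, n = 5 libraries each). Gcsam, Gpr141b, Ifi205, P2ry14, P3h2 and Fgd6 were also among the 12 largest rises, and 5 of the 12 had over 50% of their UMIs in pDC-marked cells, a group that the cDC2-like gate itself leaves out.

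The genes lower than in cDC2-like cells were led by Dscam, an adhesion molecule, at 0 CPM in each Apol7c-low library against 55.0 ± 11.5 CPM in cDC2-like cells (SD, n = 5 libraries), with Ryr3, Dtx1, a Notch pathway regulator (0.25 against 151 CPM), Ptger3, 2900052N01Rik, Tgm2, Abcb1a, Clec4a4, H2-Eb2, Ifitm1 and Ccr6. Of 19 tested maturation genes 1 rose and 16 fell relative to cDC2-like cells, of 22 NF-kappaB targets 1 rose and 18 fell, and of 11 genes of the SIRP, CD47 and PIR list 0 rose and 9 fell. MHC class II had 1 of 14 higher and 11 lower, while MHC class I had 13 of 23 higher and 2 lower. Of the type I interferon list 7 of 37 tested members rose and 21 fell. Cholesterol synthesis was higher here too, with 8 of 12 tested members up and 0 down. Summed per library, that list came to 869 to 1474 CPM in pDC-marked cells, which the cDC2-like gate leaves out. In Xcr1-detected cells it came to 473 to 628 CPM, against 387 to 444 CPM in cDC2-like cells.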

How the data were processed

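The authors deposited UMI count matrices, 1 per library, made with Cell Ranger 4.0 against mm10, per the submitters' processing notes and the file headers. The deposited counts are raw counts per gene and droplet. Total counts of the libraries ran from 12742889 to 32641733 UMIs, and those of the gated cells from 624339 to 853599 UMIs per library. For 4 libraries, each listing 6794880 barcodes, the droplets below the cell filter allowed free RNA to be measured. The matrix of the apoptotic allogeneic library listed 2491 barcodes, 0 of them with 10 to 100 UMIs, so free RNA could not be measured there. The gate, the subsets and the gene lists were chosen with earlier results of these data known.

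Counts of the gated cells were summed per library and divided by their total (CPM). Infusions were compared by the ratio of sums, with exact conditional Poisson intervals, for genes with at least 50 UMIs in both sums together, and log2 ratios took a pseudocount of 10 CPM. Apol7c-low cells were compared with Apol7c-positive and with cDC2-like cells by edgeR 4.0.16 (quasi-likelihood test, TMM scaling, library as a block, Benjamini-Hochberg adjustment, R 4.3.3), since both classes come from the same libraries, and the replicate is the library. Each such p sets the difference between the classes within a library against how much that difference varied over 5 libraries. These libraries had different infusions. The median log2 difference from Apol7c-positive cells over all genes tested was 0.02 under TMM and 0.12 under plain totals. DESeq2 1.42.0, other scalings, filters, gates, cell thinning and the omission of each library were tried as alternatives. The procedures were tested on simulated data.

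The genes named were, for each pair of infused strains, the 10 of highest and of lowest log2 ratio, for each comparison with saline the 5, and for each paired test the 12 with an adjusted p under 0.05 and the same sign in all 5 libraries. A UMI in at least 10% of cells was required. That choice skipped the gate genes and genes of antigen receptors, haemoglobin, mitochondria, ribosomal proteins and sex. Members of the lists with most UMIs were added, and a few further members were named after their values were seen. Some genes that these rules reach are not reported here. Scrublet marked 0.08 to 1.83% of cells per library as doublets, 1 of them gated, and they were kept. Any 2 libraries shared 0 to 8 cell barcodes. Promoter sequences are RefSeq's, on GRCm38.p6.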

Additional observations from a re-analysis of the deposited data

How the results depend on the processing

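Of 203 alternative values for 16 results, 157 stayed close to the reported value (counts within 1.5 times, list medians also within 0.2), 45 moved and 1 changed sign. The type I interferon median of apoptotic allogeneic against apoptotic isogeneic infusion was -0.07 as reported and 0.018 on 3 genes after thinning. Counts past 1.5-fold followed the filter on low counts: with at least 20 UMIs, live allogeneic against live isogeneic gave 764 genes higher and 910 lower, and apoptotic allogeneic against apoptotic isogeneic 722 and 512. With at least 200 UMIs these were 46 and 30, and 14 and 3. Thinned to 1000 UMIs they were 35 and 14, and 15 and 13, because fewer genes were measured. The mean of per-cell CPM gave 513 genes higher in the live pair and 228 lower in the apoptotic pair, and cells with an Xcr1 UMI gave 139 higher in the apoptotic pair (the cause was not tested). The median of the type I interferon list after thinning rested on 2 genes, at 0.94 for live allogeneic against live isogeneic infusion and 0.92 against saline, and in cells with an Xcr1 UMI it was 0.38 against saline. With at least 3 UMIs of Xcr1 and Clec9a it was 0.19 for the live pair (the cause was not tested).

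For Apol7c-low against Apol7c-positive cells, DESeq2 called 288 genes higher and 343 lower, thinning 93 and 105, a gate of at least 3 UMIs of Xcr1 and Clec9a 400 higher, and the gate without pDC-marked cells 406 higher. For Apol7c-low against cDC2-like cells DESeq2 called 839 and 837, and thinning 224 and 239. Leaving out each library in turn gave 473 to 622 higher and 531 to 778 lower against Apol7c-positive cells, and 1116 to 1359 and 1155 to 1372 against cDC2-like cells. With no replicate block for the library the counts were 415 and 473, and 1121 and 1145. No paired analysis was possible between infusions because each had 1 library.

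The share of gated cells with interferon UMIs, in live allogeneic, live isogeneic, apoptotic allogeneic, apoptotic isogeneic and saline libraries, was 39.5%, 31.3%, 32.0%, 21.8% and 25.9% with at least 5 UMIs, 87.8%, 78.7%, 71.2%, 72.7% and 74.0% when thinned to 2000 UMIs, and 46.7%, 32.0%, 36.2%, 33.3% and 33.3% among cells with an Xcr1 UMI. Without pDC-marked cells it was 30.6% in the live isogeneic library. The settings on pDC-marked and Xcr1-detected cells were chosen after seeing the data. With 43 to 83 gated cells per library, single cells can set a gene's level.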
